A study of Mus musculus with 51 samples.

Results

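The genes described here are 6 genes of urine concentration, the water channels Aqp1, Aqp2, Aqp3 and Aqp4, the vasopressin receptor gene Avpr2 and the urea transporter gene Slc14a2. They were chosen by name from the 16099 genes of the deposited expression table, with earlier results of these data known. All 6 passed the filter on low values that left 14426 genes for testing. Kidneys of wild-type C57BL/6 mouse fetuses were collected at 13 time points, CT0 to CT48, spaced 4 h apart, and poly-A RNA was sequenced from 51 libraries. CT0 carries the age label E18, CT24 E19 and CT48 E20, while the series' design text names E20.5 as its end. No treatment or engineered allele is named in the labels, which tell the groups apart by time and age. Each time point had 4 libraries, except CT20, which had 3.

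Urine is concentrated when water leaves the collecting duct for a salty, urea-rich medulla. The hormone vasopressin binds the V2 receptor, encoded by Avpr2, on principal cells of the duct, and the cyclic AMP this raises sends Aqp2 channels to the membrane facing the urine. Water then leaves the cell through Aqp3 and Aqp4 on the blood side. Aqp1 carries water across the proximal tubule and the thin descending limb, and Slc14a2 encodes the UT-A urea transporters of the inner medullary collecting duct and the thin limb. Before birth the placenta clears wastes, and the ability to concentrate urine matures late.

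Values are normalised read counts that were rounded, so library totals of 34226024 to 35711911 say nothing of sequencing depth, which is not known. Within the series, CT0 to CT24 (27 libraries) and CT28 to CT48 (24 libraries) had nearly equal gene means. The log2 difference between those means had an SD of 0.03 over the 12274 genes with a mean of at least 100. Inside the stretches, the last 3 time points differed from the first 3 with an SD of 0.09 (CT0 to CT24) and 0.29 (CT28 to CT48). Contrasts between time points and lines were therefore made inside one stretch, and none of them used the change from CT24 to CT28. The difference of slopes set the slope of one stretch against that of the other. The 24 h cycle was fitted over both stretches with a step between them, which an alternative left out. Libraries of the later stretch also scattered more around their time point, with a median SD of 0.14 on the log2 scale against 0.07. The labels name no dams or litters, so p-values measure the spread between these libraries, and libraries of 1 time point could share a litter. The IDs of 2 libraries, the fourth of CT12 and the third of CT36, begin with another prefix. Of the marker genes of the 10 lists that had values, no gene was at 0 in every library of any time point. The erythroid genes Epb42 and Ahsp had no values. The lists also cover skeletal muscle, erythroid cells and the cell cycle, and a value above 0 does not by itself show that a cell type was present.

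The promoters of Aqp2 and Aqp3 are shown because these channels of the principal cell had closely similar courses over the libraries, with a correlation given further on. Each line gives the 250 bases before the RefSeq start of the gene (build GRCm38.p6), read 5′ to 3′ on the strand of the gene. They lie at chr15:99578806-99579055 on the plus strand for Aqp2 and chr4:41098184-41098433 on the minus strand for Aqp3, and capitals mark the motif matches.
Aqp2: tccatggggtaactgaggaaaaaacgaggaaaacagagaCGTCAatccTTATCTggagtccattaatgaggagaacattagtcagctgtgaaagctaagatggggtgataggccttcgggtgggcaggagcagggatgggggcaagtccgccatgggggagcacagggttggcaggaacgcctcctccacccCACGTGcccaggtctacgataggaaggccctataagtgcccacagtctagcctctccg
Aqp3: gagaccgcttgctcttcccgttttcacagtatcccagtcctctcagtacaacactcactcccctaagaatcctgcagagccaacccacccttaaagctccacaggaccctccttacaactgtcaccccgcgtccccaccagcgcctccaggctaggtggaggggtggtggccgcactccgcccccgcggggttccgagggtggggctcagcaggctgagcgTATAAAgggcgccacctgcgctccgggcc
The motifs searched, on both strands, were the E-box CACGTG, the full cyclic AMP response element TGACGTCA and its shorter form TGACG, the GATA motif AGATAA, the TATA motif TATAAA and the osmotic response core TGGAAA. In Aqp2 the E-box match began 58 bases before the start, on the gene's strand. The TGACG match began 211 bases and the AGATAA match 202 bases before the start, both on the other strand, where they read in the printed line as CGTCA and TTATCT. In Aqp3 the TATAAA match began 29 bases before the start. Among 32851 windows of the same length, 6.02% held CACGTG, 17.8% TGACG, 9.99% AGATAA and 12.4% TATAAA. The full TGACGTCA was in 1.55% and TGGAAA in 18.6% of windows, and neither was in the windows of Aqp2 and Aqp3. A match is a stretch of letters and does not show that a factor binds there.

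The genes differed widely in level when values were divided by the exon length of the GENCODE M21 annotation (GRCm38, also called mm10). Over the 51 libraries the mean value per kb of exon was 7862 for Aqp2, 4277 for Aqp1, 1815 for Aqp3, 241 for Aqp4, 138 for Avpr2 and 113.4 for Slc14a2. Aqp2, Aqp1, Aqp3 and Aqp4 stood in that order in all 51 libraries, and neighbours in it did not overlap at any of the 13 time points. Aqp4 and Avpr2 overlapped at 1 time point. The lowest pair did not keep its order: Avpr2 was above Slc14a2 in 33 of 51 libraries, and the 2 genes overlapped at 5 of 13 time points. Most exon bases of Avpr2 are shared with Arhgap4 on the opposite strand, as described further on. Its level per kb and its place in the order are therefore uncertain.

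**Figure D1:**
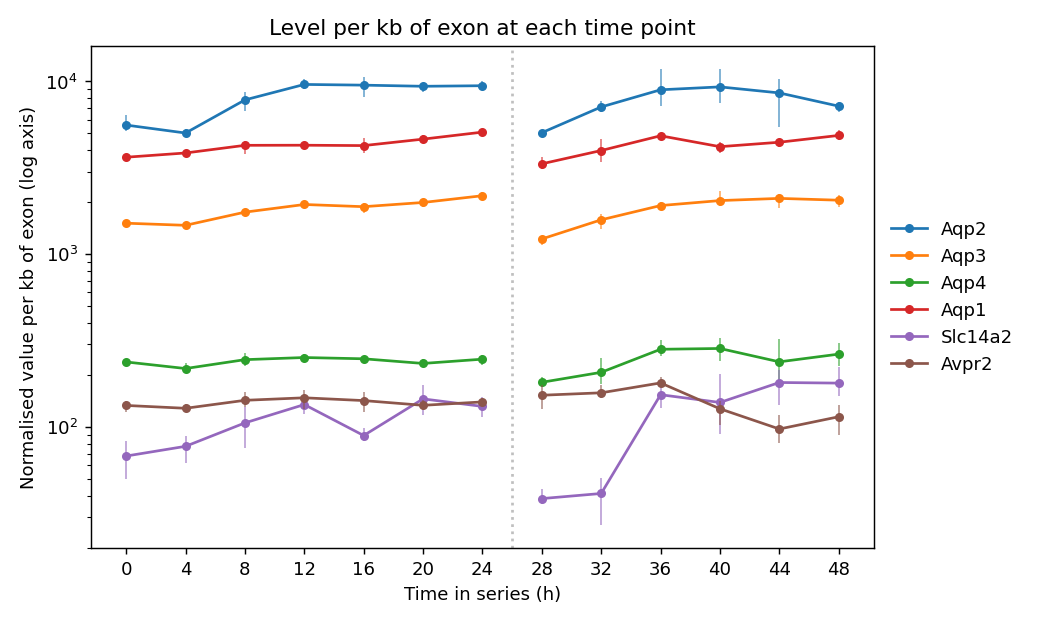
Mean normalised value per kb of exon (log axis) of the 6 genes against time in the series (h). Bars run from the lowest to the highest library of each time point, and a dotted line lies between CT24 and CT28. Aqp2 (7862 over all libraries), Aqp1 (4277) and Aqp3 (1815) stay well above Aqp4 (241), Avpr2 (138) and Slc14a2 (113.4), and the lines of Slc14a2 and Avpr2 cross. The Avpr2 level is uncertain, as most of its exon bases are shared with Arhgap4.

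From CT0 to CT24, which asks how the genes changed between embryonic days 18 and 19 at the same hour, 4 of the 6 genes rose and 0 fell. The 4 were Aqp2, Aqp3, Aqp1 and Slc14a2, where 6.04% of all tested genes rose and 3.96% fell (limma, Benjamini-Hochberg adjusted p under 0.05). Aqp4 and Avpr2 did not pass. With the spread of CT0 to CT24 alone the same 4 genes rose, where 2070 of 14426 tested genes rose and 1762 fell. In CT48 against CT28, over 20 h, 5 genes rose and Avpr2 fell, where 30.7% of all tested genes rose and 33.3% fell. With the spread of CT28 to CT48 alone the 6 calls stood, against 25.7% rises and 28.1% falls of all genes. That contrast starts from low values at CT28: with CT36 in its place, an alternative added after the values were seen, only Avpr2 passed, against 29.2% of all genes in either direction. Avpr2 had its highest mean of that stretch at CT36, so that choice favours a fall of this gene. Because fewer cells of a type and less RNA per cell cannot be told apart in whole kidneys, all changes below are changes of level in the organ.

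**Figure D2:**
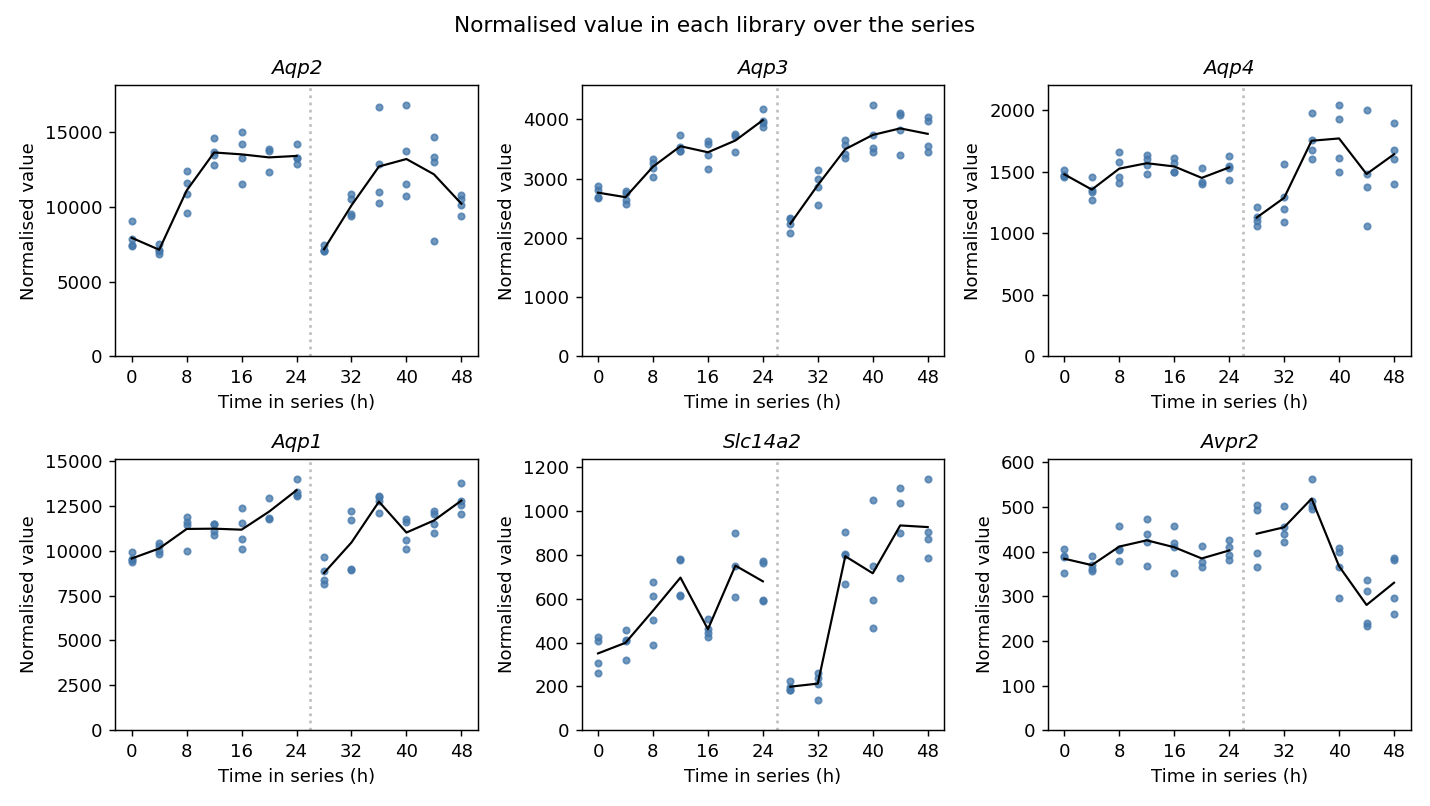
Normalised value of each gene in each library (points) and the mean of each time point (line) against time in the series (h). Each panel has its own axis from 0 and a dotted line between CT24 and CT28. Aqp2 rises from 6848 to 7493 at CT4 to 12791 to 14605 at CT12, Slc14a2 from 139 to 260 at CT32 to 668 to 903 at CT36, and Avpr2 falls from 495 to 563 at CT36 to 296 to 409 at CT40.

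Avpr2, the receptor (ENSMUSG00000031390.8, chrX:73892102-73895502, plus strand), held its level through the first day and fell late in the second. Its values were 390, 405, 388 and 353 at CT0 and 425, 393, 381 and 411 at CT24. Those groups overlapped, and the log2 difference of 0.07 ± 0.11 (SE) did not pass (limma, adjusted p = 0.799). In the later stretch the values were 366, 493, 504 and 397 at CT28, 513, 495, 563 and 503 at CT36 and 365, 399, 296 and 409 at CT40. CT36 held the highest library of that stretch, and every library of CT40 was below every library of CT36, a ratio of means of 0.708. This was the only one of 11 adjacent steps at which the Avpr2 groups did not overlap. At CT44 the values were 336, 241, 234 and 311, the lowest mean of that stretch, and at CT48 they were 260, 381, 295 and 385. CT48 overlapped CT28, whose lowest library was 366. Against CT28 the gene fell by 0.42 ± 0.11 on the log2 scale (limma, adjusted p = 0.00127, and 0.0143 when the spread was taken from CT28 to CT48 alone). Against CT36 it fell by 0.67 ± 0.11 (limma, adjusted p = 1.61e-05 with the spread of all 51 libraries, which is too narrow in this stretch). CT36 was taken as a start after the values were seen and had the highest Avpr2 mean of the stretch. That choice favours a fall, so this p-value is no independent support for one.

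Reads of Avpr2 are uncertain as those of a single gene. Of its exon bases 2347, or 81.3%, are shared with exons of Arhgap4, a gene for a GTPase-activating protein on the opposite strand, and the sources used here do not give the strand setting of the read counting. Arhgap4 was at 350, 383, 369 and 355 at CT28, at 223, 323, 267 and 291 at CT36, and at 248, 153, 169 and 167 at CT40. It fell from CT28 to CT48 as well, by 0.59 ± 0.15 (limma, adjusted p = 0.000669), and at CT24 against CT0 its difference was 0.07 ± 0.15 (adjusted p = 0.868). The courses were not the same throughout: from CT28 to CT36 the mean of Arhgap4 went from 364 to 276 while that of Avpr2 went from 440 to 518. L1cam, a neural adhesion gene whose span also covers Avpr2 but shares 0 exon bases with it, rose by 0.31 ± 0.07 from CT28 to CT48 (adjusted p = 4.33e-05). The part of the overlap in the Avpr2 values was not tested.

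**Figure D3:**
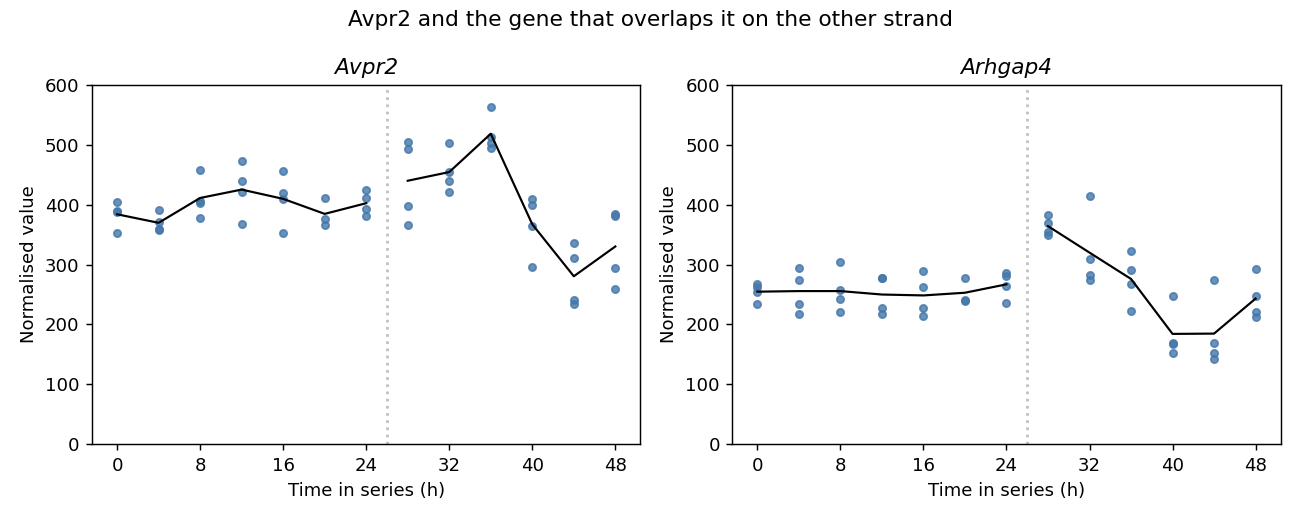
Normalised value of Avpr2 and of Arhgap4, which overlaps it on the opposite strand, in each library (points) with time-point means (line) against time in the series (h), on the same axis from 0. Both means lie lower at CT44 than at CT28, while at CT36 the Avpr2 mean of 518 is its highest and the Arhgap4 mean of 276 is below that of CT28.

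Aqp2, the vasopressin-regulated channel on the urine side (ENSMUSG00000023013.5, chr15:99579055-99584547, plus strand), rose early and then held. Its values were 7377, 9087, 7829 and 7440 at CT0 and 7126, 7071, 6848 and 7493 at CT4. At CT8 they were 10844, 9582, 11591 and 12365, and at CT12 they were 12791, 13484, 13664 and 14605. The groups of CT4, CT8 and CT12 did not overlap, and the mean rose 1.56-fold and then 1.23-fold over the 2 steps. From CT12 to CT24 adjacent groups overlapped, and CT24 held 13258, 12886, 14213 and 13265. All CT24 libraries were above all CT0 libraries, with a log2 difference of 0.76 ± 0.13 (limma, adjusted p = 0.000189). The summed values of 6 principal cell markers, among them the sodium channel genes Scnn1a, Scnn1b and Scnn1g, ran from 10633 to 10905 at CT0. They ran from 10978 to 11775 at CT4, from 10798 to 11377 at CT8 and from 10374 to 10897 at CT12. At CT24 they ran from 12295 to 12866. Their part in the Aqp2 result was not tested.

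The later stretch of Aqp2 began low again and scattered widely. CT28 held 7035, 7100, 7081 and 7445, and CT32 held 9536, 10882, 9423 and 10558. Those groups did not overlap, with a 1.41-fold rise of the mean, the only such step of the gene after CT28. From CT36 to CT44 single libraries ranged from 7704, in CT44 replicate 3, to 16806, in CT40 replicate 2. CT48 held 10826, 10508, 10102 and 9403, all above CT28. The log2 difference of CT48 from CT28 was 0.51 ± 0.13 (limma, adjusted p = 0.00113, and 0.018 with the spread of CT28 to CT48 alone). Against CT36 the difference was -0.29 ± 0.13 (adjusted p = 0.0981).

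Aqp3, the aquaglyceroporin of the blood side (ENSMUSG00000028435.8, chr4:41092722-41098183, minus strand), climbed most steadily. Of 11 adjacent steps it rose without overlap at 5, and at no step was a group wholly below the one before it. Its values were 2665, 2816, 2692 and 2881 at CT0 and 3868, 4175, 3967 and 3937 at CT24. The groups were far apart for their spread, with a log2 difference of 0.53 ± 0.06 (limma, adjusted p = 2.99e-08). CT28 held 2318, 2076, 2236 and 2329, and CT48 held 3972, 3555, 4043 and 3452. The log2 difference was 0.74 ± 0.06 (adjusted p = 7.79e-15, and 2.86e-09 with the spread of CT28 to CT48 alone). Most of that rise lay before CT36, since CT48 differed from CT36 by 0.10 ± 0.06 (adjusted p = 0.205).

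Aqp4, the other channel of the blood side (ENSMUSG00000024411.10, chr18:15389496-15410982, minus strand), ended the first day near where it began. It held 1518, 1476, 1463 and 1466 at CT0 and 1550, 1631, 1536 and 1431 at CT24. The groups overlapped and the log2 difference was 0.05 ± 0.11 (limma, adjusted p = 0.848). Between them CT4, at 1351, 1275, 1340 and 1461, lay wholly below CT0, at 0.916 of its mean. In the later stretch the values were 1100, 1063, 1135 and 1219 at CT28, 1567, 1293, 1202 and 1097 at CT32 and 1608, 1675, 1756 and 1976 at CT36. Every CT36 library was above every CT32 library, a log2 difference of 0.45 ± 0.11 (adjusted p = 0.000609, and 0.0156 with the spread of CT28 to CT48 alone). CT48 held 1897, 1676, 1399 and 1604, all above CT28, with a difference of 0.53 ± 0.11 (adjusted p = 3.55e-05, and 0.00267 with that narrower set of libraries). Against CT36 the difference was -0.10 ± 0.11 (adjusted p = 0.529).

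Aqp1, the constitutive channel of the proximal tubule and thin descending limb (ENSMUSG00000004655.5, chr6:55336432-55348555, plus strand), rose by small steps. Its values were 9927, 9465, 9349 and 9527 at CT0 and 13116, 14005, 13060 and 13291 at CT24. No library of CT24 was near CT0, and the log2 difference was 0.48 ± 0.07 (limma, adjusted p = 4.25e-06). CT28 held 8154, 8375, 9650 and 8862, and CT48 held 12765, 12058, 13777 and 12570, a difference of 0.55 ± 0.07 (adjusted p = 2.19e-09, and 1.58e-06 with the spread of CT28 to CT48 alone). At CT32 the libraries split, with 11685 and 12225 in 2 of them and 8935 and 8998 in the others. The only fall without overlap was from CT36 to CT40, to 0.865 of the mean. Summed values of 7 proximal tubule markers, which include the endocytic receptor genes Lrp2 and Cubn, moved in the same direction over the first day. They ran from 80104 to 93054 at CT0 and from 111643 to 121865 at CT24, then from 80703 to 102352 at CT28 and from 97763 to 122849 at CT48. Of these 7 genes 4 rose and 0 fell at CT24 against CT0, where 6.04% of all tested genes rose and 3.96% fell. At CT48 against CT28, 5 rose and 1 fell (30.7% and 33.3% of all genes). With the spread of CT28 to CT48 alone 5 rose and 0 fell (25.7% and 28.1%). At CT36 against CT32, 1 rose and 2 fell, where 3202 of 14426 tested genes rose and 3740 fell. The part of these markers in the Aqp1 result was not tested.

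Slc14a2, the urea transporter gene (ENSMUSG00000024552.16, chr18:78146148-78596942, minus strand), had the largest differences of the 6 in both contrasts. Its values were 259, 426, 408 and 309 at CT0 and 762, 590, 595 and 770 at CT24, with no overlap and a log2 difference of 0.97 ± 0.20 (limma, adjusted p = 0.000827). The way up was not even: the 4 libraries of CT16, from 426 to 509, lay wholly below those of CT12, from 611 to 783, and those of CT20, from 606 to 900. The means changed to 0.662 and then 1.63 times the one before. In the later stretch CT28 held 185, 199, 226 and 185 and CT32 held 240, 260, 139 and 212. CT36 then held 668, 800, 804 and 903, which is 3.73 times the CT32 mean and the largest step of any of the 6 genes. The log2 difference of CT36 from CT32 was 1.92 ± 0.20 (adjusted p = 2.84e-10, and 3.43e-07 with the spread of CT28 to CT48 alone).

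After CT36 the level of Slc14a2 held. CT48 held 785, 903, 1147 and 872, which differed from CT28 by 2.21 ± 0.20 (limma, adjusted p = 1.13e-12, and 4.36e-09 with the narrower spread) and from CT36 by 0.22 ± 0.20 (adjusted p = 0.425). Over the step from CT32 to CT36 the summed value of 7 cell cycle markers went the other way, from a range of 38437 to 44848 to one of 29327 to 31653. Summed principal cell markers went from 9647 to 10880 at CT32 to 11596 to 12964 at CT36. Of these 6 genes 4 rose and 2 fell at that step, where 3202 of 14426 tested genes rose and 3740 fell. The part of these shifts in the Slc14a2 result was not tested.

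At that same step, CT36 against CT32, 4 of the 6 genes rose, against 22.2% of all tested genes. They were Slc14a2, Aqp4, Aqp1 (0.30 ± 0.07, adjusted p = 0.00036, and 0.00432 with the spread of CT28 to CT48 alone) and Aqp3 (0.28 ± 0.06, adjusted p = 0.000152 and 0.00373). Aqp2 (0.31 ± 0.13, adjusted p = 0.0552 and 0.181) and Avpr2 (0.19 ± 0.11, adjusted p = 0.164 and 0.318) did not pass (limma). Aqp2 passed in 8 of the 21 alternatives, among them the one without CT36 replicate 3 (adjusted p = 0.02).

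**Figure D4:**
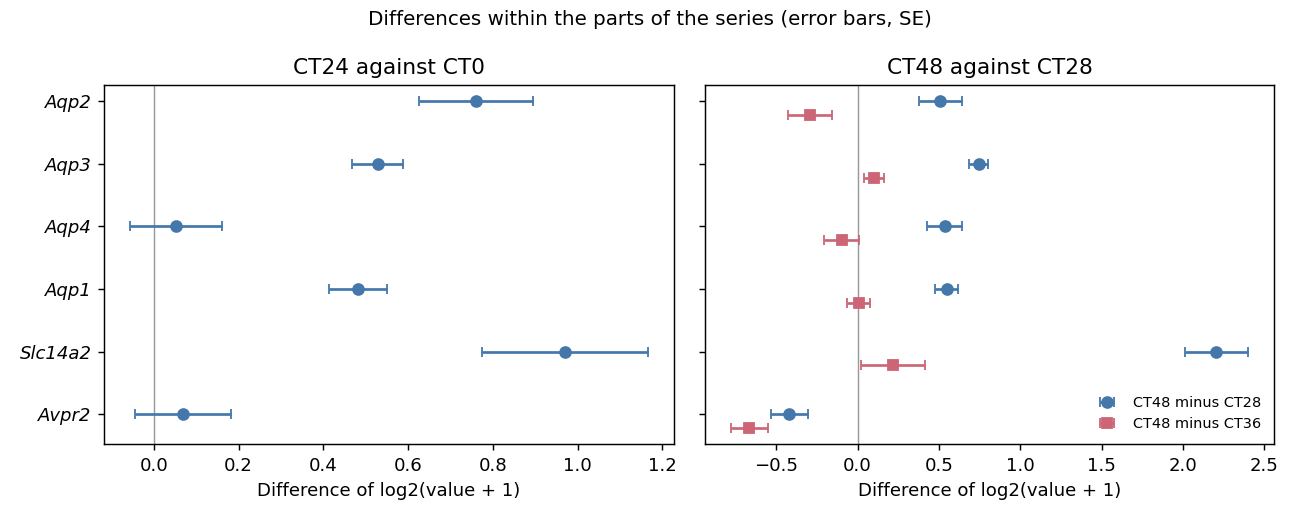
Difference of log2(value + 1) for each gene with its standard error, for CT24 against CT0 (left) and for CT48 against CT28 (right, circles) and against CT36 (right, squares), with a line at 0. Slc14a2 has the largest difference on both sides (0.97 and 2.21), and against CT36 all but Avpr2 (-0.67) lie between -0.29 and 0.22.

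A line through each stretch gave the change per 24 h. From CT0 to CT24 it was 0.94 ± 0.16 for Aqp2, 0.95 ± 0.26 for Slc14a2, 0.55 ± 0.07 for Aqp3 and 0.42 ± 0.07 for Aqp1, all higher (limma, adjusted p from 9.8e-07 for Aqp3 to 0.022 for Slc14a2). These were 4 of 6 genes, against 4.24% of all tested genes with a rising line. With the spread of CT0 to CT24 alone the same 4 were called, and 1866 of 14426 tested genes had a rising line. The Aqp4 slope was 0.09 ± 0.11 and that of Avpr2 0.07 ± 0.12. With the mean of each time point as 1 value, which allows for libraries of a time point sharing a litter, 0 of 6 passed at the adjusted threshold (17 of all genes, or 0.118%, did) and 3 of 6 had an unadjusted p under 0.05 in limma. The Slc14a2 slope was also not called without CT0 (adjusted p = 0.307), CT4 (0.0821), CT20 (0.0903) or CT24 (0.145), or without any one of the 4 replicate numbers (0.0584 to 0.165).

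From CT28 to CT48 the lines of 5 genes rose and that of Avpr2 fell, where 32.7% of all tested genes rose and 35.6% fell. Slc14a2 had the steepest, at 2.96 ± 0.32 per 24 h (limma, adjusted p = 4.33e-11, and 8.4e-07 with the spread of CT28 to CT48 alone), and Avpr2 had -0.81 ± 0.15 (adjusted p = 2.4e-06 and 0.000488). The Aqp2 rise of 0.57 ± 0.20 (adjusted p = 0.0129 and 0.042) was not called with time-point means (0.177), with weights by stretch (0.077) or without replicate 1 (0.0783) or 2 (0.0599), and that of Aqp4 (0.55 ± 0.14) was not called without CT28 (0.2). All the rises were lost together in one alternative: without CT28 and CT32, chosen after the values were seen, only Avpr2 was called (-1.44 ± 0.26, adjusted p = 4.75e-05), against 27.9% of all genes in either direction. The Avpr2 line then began at CT36, its highest mean of that stretch, which favours a steeper fall. The lines of Aqp2 and Aqp4 then turned to -0.61 ± 0.34 and -0.34 ± 0.21, and neither passed. The Avpr2 line was called in all 21 alternatives, with values from -1.44 to -0.61.

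The slopes of the 2 stretches were compared directly. That of Avpr2 was lower in the later one by a log2 difference of -0.88 ± 0.19 per 24 h (limma, adjusted p = 6.92e-05), and it was called in all 27 alternatives. Those of Slc14a2 (2.01 ± 0.42, adjusted p = 6.17e-05), Aqp4 (0.46 ± 0.18, adjusted p = 0.0228) and Aqp3 (0.31 ± 0.12, adjusted p = 0.0208) were higher. The Aqp4 difference was not called in 8 alternatives and that of Aqp3 in 5, apart from reversals, among them time-point means (adjusted p = 0.136 and 0.203), without replicate 1 (0.117 and 0.101), without CT0 (0.0775 and 0.0744) and without CT24 (0.0632 and 0.059). This made 4 of 6 genes, where 55.1% of all tested genes differed. When CT28 and CT32 were left out, 2 of 6 were called, against 20.2% of all genes. The differences of Slc14a2, Aqp4 and Aqp3 then turned negative and did not pass, while that of Aqp2 passed at -1.55 ± 0.37 (adjusted p = 0.00286).

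The series title names the circadian clock, so a 24 h cycle was fitted. The fit had terms for a steady trend and for a step between CT24 and CT28. Aqp2 had a log2 amplitude of 0.29 ± 0.04 with its fitted peak at 13.6 h (limma, adjusted p = 6.76e-06). Avpr2 had 0.21 ± 0.05 with a peak at 9.5 h (adjusted p = 0.0118), and Aqp3 had 0.10 ± 0.03 with a peak at 14.8 h (adjusted p = 0.0111). These were 3 of 6 genes, against 12.3% of all tested genes. Aqp4 (0.12 ± 0.04, adjusted p = 0.0702), Slc14a2 (0.28 ± 0.13, adjusted p = 0.194) and Aqp1 (0.07 ± 0.03, adjusted p = 0.199) did not pass. In the values themselves Aqp2 at CT24 (12886 to 14213) still overlapped CT12 (12791 to 14605). With time-point means as the unit 0 of 6 genes and 0 of all 14426 (0%) were called, and 1 of 6, Aqp2, had an unadjusted p under 0.05 (3.57e-05). Aqp3 was not called without CT28 (adjusted p = 0.0578), without replicate 2 (0.0975) or 4 (0.138), or with weights by stretch, which lowered its amplitude to 0.06 (0.0585). Avpr2 was not called without CT36 (0.0505), CT44 (0.0638) or replicates 2, 3 and 4 in turn (0.0751, 0.0815 and 0.0534), while Aqp4 was called in 6 of 28 alternatives. Avpr2 overlaps Arhgap4, whose own amplitude was 0.27 ± 0.07 (adjusted p = 0.0242).

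In the authors' deposited table of rhythm tests the combined q-value was under 0.05 for all 6 genes, as it was for 41.3% of the 16099 genes listed there. It was lowest for Aqp3 (3.01e-08) and Aqp2 (9.53e-08) and highest for Aqp1 (0.043). The periods in the authors' deposited table were 28 h for Aqp1 and Slc14a2, 27.5 h for Aqp3, 26.6 h for Aqp2, 24.7 h for Aqp4 and 23.3 h for Avpr2.

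The other genes of the pathway are given by list. Beside each count stand the shares of all tested genes given above: 6.04% rose and 3.96% fell at CT24 against CT0, 30.7% rose and 33.3% fell at CT48 against CT28, and 27.9% were called in either direction for the slope without CT28 and CT32. For that slope 2048 of 14426 genes rose and 1983 fell. With the spread of CT28 to CT48 alone the shares at CT48 against CT28 were 25.7% and 28.1%. With the spread of CT0 to CT24 alone 2070 of 14426 genes rose and 1762 fell at CT24 against CT0. List counts that differed under that spread are given below. Of 11 tested genes of vasopressin signalling 2 rose and 1 fell at CT24 against CT0 (median difference 0.03, against 0.00 over all genes), and 4 rose and 4 fell at CT48 against CT28 (median -0.02, against -0.01), also with the later spread alone, an even split as over all genes. At CT24 against CT0 with the spread of CT0 to CT24 alone, 3 of these genes rose and 1 fell. Avpr1a, the V1a receptor gene, rose by 0.47 ± 0.11 (limma, adjusted p = 0.005) and by 0.33 ± 0.11 (adjusted p = 0.0104). Pde4d, a phosphodiesterase that breaks down cyclic AMP, rose by 0.30 ± 0.09 and 0.42 ± 0.09. Prkar2b, a regulatory subunit of protein kinase A, fell by 0.20 ± 0.06 and 0.47 ± 0.06. The slopes of this list without CT28 and CT32 gave 0 rises and 1 fall.

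Other receptors act against or beside vasopressin in the duct. Of 7 prostaglandin, endothelin and purine receptor genes 3 rose at CT24 against CT0 (median 0.12; 6.04% of all genes) and 6 rose at CT48 against CT28 (median 0.49; 30.7% of all genes), or 5 with the later spread alone. Ptger3, a prostaglandin E2 receptor that lowers cyclic AMP, rose by 0.65 ± 0.10 (limma, adjusted p = 9.84e-06) and 0.84 ± 0.10 (adjusted p = 2.77e-10). P2ry2, a receptor for ATP, rose by 0.56 ± 0.15 and 1.56 ± 0.15, from a mean of 122.75 to 368.75 in the later contrast. Ednrb, the endothelin B receptor gene, rose by 0.28 ± 0.07 in the first and Ptger4 by 0.60 ± 0.15 in the later. For 2 of these 7 the slopes rose without CT28 and CT32, where 2048 of 14426 tested genes rose.

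Of 9 tested genes listed for the vesicle trafficking of Aqp2, 1 rose at CT24 against CT0, the motor gene Myo5b (0.16 ± 0.05, limma, adjusted p = 0.0498). At CT48 against CT28, 4 rose and 5 fell (median -0.21), or 3 and 5 with the later spread alone, where all genes also split nearly evenly (30.7% and 33.3%), with the fusion protein genes Snap23 at -0.72 ± 0.08, Stx4a at -0.56 ± 0.07 and Vamp2 at 0.54 ± 0.06. With CT28 and CT32 left out the slopes gave 3 rises and 3 falls.

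Of 8 transcription factors of principal cells 0 passed at CT24 against CT0 in limma, and 2 had an unadjusted p under 0.05. The smaller of these was that of Nfat5, the tonicity-responsive factor (0.15 ± 0.06, adjusted p = 0.0773). With the spread of CT0 to CT24 alone 2 of the 8 rose and 1 fell. At CT48 against CT28, 5 rose (median 0.18; 30.7% of all genes), or 4 with the later spread alone, led by Elf3 (0.43 ± 0.10) and Tfcp2l1 (0.40 ± 0.06), both factors of the duct epithelium, and Nfat5 (0.26 ± 0.06). Of 5 osmolyte genes of the medulla 0 passed at CT24 against CT0, with 2 at an unadjusted p under 0.05. The betaine transporter gene Slc6a12 was at 0.51 ± 0.19 (limma, adjusted p = 0.083). With the spread of CT0 to CT24 alone 2 of the 5 rose. At CT48 against CT28, 3 of the 5 rose, or 2 with the later spread alone, under which Slc6a12 had an adjusted p of 0.0539: the taurine transporter gene Slc6a6 (1.42 ± 0.09), the inositol transporter gene Slc5a3 (0.91 ± 0.13) and Slc6a12 (0.57 ± 0.19). Slopes without CT28 and CT32 gave 1 rise of 8 among the factors and 1 of 5 among the osmolyte genes. Of 14426 tested genes 2048 rose then.

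The genes beside Slc14a2 in urea handling rose in both contrasts, 3 of 4 in each (medians 0.65 and 0.98), where 6.04% and 30.7% of all genes rose. Slc14a1, the UT-B urea transporter gene, rose by 0.99 ± 0.15 (limma, adjusted p = 6.9e-06) and 1.36 ± 0.15 (adjusted p = 2.49e-11). Arg2, the arginase that releases urea, rose by 0.49 ± 0.15 and 1.47 ± 0.15, and Asl, the enzyme before it in the cycle, by 0.35 ± 0.08 and 0.60 ± 0.08. Of 5 genes of salt transport in the thick ascending limb, which makes the medulla salty, 4 rose at CT24 against CT0, and 4 rose and 1 fell at CT48 against CT28 (6.04%, 30.7% and 33.3% of all genes). The counts of both lists at CT48 against CT28 were the same with the later spread alone. At CT24 against CT0 with the spread of CT0 to CT24 alone, 5 of the 5 salt genes rose. Slc12a1, the sodium-potassium-chloride cotransporter gene, rose by 0.37 ± 0.07 and 0.38 ± 0.07. The 1 that fell was the potassium channel gene Kcnj1 (-0.22 ± 0.07), named after its value was seen. Without CT28 and CT32 the slopes gave 2 rises of 4 among the urea genes and 1 rise and 1 fall of 5 among the salt genes.

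Of 8 other aquaporins listed, 7 were in the table and 5 passed the filter. At CT24 against CT0, 1 of 5 rose (6.04% of all genes), Aqp6, a channel of intercalated cell vesicles, by 1.14 ± 0.22 (limma, adjusted p = 0.000442). With the spread of CT0 to CT24 alone 3 of 5 rose. At CT48 against CT28, Aqp11 rose by 0.19 ± 0.07 (adjusted p = 0.0199) and Aqp5 fell by 0.84 ± 0.25 (adjusted p = 0.00322), from a mean of 65.5 to 37.2. With the later spread alone Aqp11 did not pass (adjusted p = 0.0783) and Aqp5 did (0.0286). At CT36 against CT32, 2 of 5 fell, where 3740 of 14426 tested genes fell. The slopes of CT28 to CT48 gave 1 rise and 3 falls, where 32.7% of all tested genes rose and 35.6% fell. The difference of slopes was lower for 3 of 5, and for 4305 of the 14426 tested genes. With the later spread alone there was 1 fall at CT36 against CT32 and 1 for the slopes of CT28 to CT48. Of the 14426 tested genes 2760 and 4427 fell then.

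Likeness between genes was described by Pearson's r of log2 values over the 51 libraries, after the mean of each stretch was taken out. The values share libraries and the trend with age, and r is given as a description. Aqp2 and Aqp3 had r = 0.83, which put Aqp3 at rank 2 of 14425 genes for Aqp2, and Fam129a was at rank 3 (0.82). For Aqp3 the nearest were Scg5 (0.90), Socs2 (0.88) and Bmp6 (0.88), and Slc14a2 came at rank 10 (0.85). Slc14a2 was nearest to Calb1 (0.92), which encodes a calcium-binding protein of the distal nephron, then to Cgnl1 (0.92) and Tns1 (0.91). Aqp1 was nearest to Car12 (0.93), Serpina6 (0.93) and Umod (0.92), the gene of uromodulin. Aqp4 was nearest to Slc5a3 (0.80), Glul (0.78) and Epx (0.78). Avpr2 stood apart from the other 5 genes, with r from -0.29 (Slc14a2) to 0.09 (Aqp4), and was nearest to Dnajb2 (0.76), Mtfp1 (0.75) and Dcun1d2 (0.75).

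Markers of other cells give the setting of these values. Over the first day endothelial markers ran from 36378 to 37475 at CT0 and from 39223 to 39638 at CT24. Nephron progenitor markers went from 7881 to 8268 at CT0 to 6307 to 6774 at CT24, and from 8083 to 9120 at CT28 to 6322 to 7447 at CT48. Cell cycle markers went from 37776 to 39771 to 29308 to 33590 and from 43672 to 46240 to 26791 to 31989 in the same contrasts. Summed principal cell markers went from 9567 to 10715 at CT28 to 12868 to 14474 at CT48. Of these 6 genes 4 rose and 2 fell in that contrast, where 30.7% of all tested genes rose and 33.3% fell. Skeletal muscle markers reached 3111 in 1 library of CT40 and lay at 279 to 1268 at all other time points. Erythroid markers stayed between 752 and 1869. The part of these shifts in the results above was not tested.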

How the data were processed

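RNA of fetal mouse kidneys was measured in 51 libraries, grouped by the time that sample titles carry. Per the submitters' processing notes, bcl2fastq, STAR 2.5.2b, featureCounts 1.5.0-p3 and the mm10 build were used, while annotation, normalisation and strand setting are not given in these sources. The expression values the authors deposited are called counts in the file but were normalised and then rounded, as the values themselves show, and are treated as a score. A further deposited table lists, per the file headers, p-values, q-values and period scores of rhythm tests.

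Values were fitted as log2(value + 1) with limma 3.58.1 (trend, robust) in R 4.3.3, for the 14426 of 16099 genes with a mean of at least 10, with Benjamini-Hochberg adjustment over all of them and a threshold of 0.05. Differences are on that scale, which shrinks those of low genes. All 51 libraries gave one estimate of the spread. As CT28 to CT48 scattered more, that estimate is too narrow there and p-values too small, so values from those libraries alone are given beside most of the members' values and the list counts there, while p-values of list genes carry the shared estimate unless said otherwise. CT0 to CT24 scattered less, so the shared estimate is wide there, and counts with the spread of that stretch alone are given beside some results. The 7 comparisons were CT24 against CT0, CT48 against CT28, CT36 against CT32, a line in each stretch, their difference, and a 24 h cycle. Each was tested on simulated data, where the shared estimate called unchanged genes far more often than the threshold allows in the contrasts and the line of CT28 to CT48, and to a lesser degree in the difference of lines, while the libraries of that stretch alone came near it.

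The members and lists were chosen with earlier results of these data known. From each of 8 pathway lists up to 3 genes with the largest called difference in CT24 against CT0 and in CT48 against CT28 are named, or the one with the smallest p; the 3 most alike genes exclude gene models and sex-linked genes. Some genes that these rules select are left out of the text. Symbols of 15979 genes were found in GENCODE M21. Promoters come from RefSeq (GRCm38.p6), whose table was used for 4 of the 6 members. Alternatives were another pseudocount of 10, no filter, rescaling, quantile scaling, weights by stretch, the replicate number as a block, time-point means, and leaving out libraries or time points.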

Additional observations from a re-analysis of the deposited data

Results flagged for a closer look

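In Aqp2 at CT28, 1 library stood apart from the rest of its group: its value was 7445, while the others lay from 7035 to 7100. The gap was 0.841 of the range, above the critical 0.829 for 4 libraries. Of the 72 groups of 4 libraries checked this was the only one, and chance flags about 1 in 20 groups.

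The change per 24 h differed between CT28 to CT48 and CT0 to CT24 for 4 genes in the direct test of the difference of slopes. On the log2 scale the difference was 2.01 for Slc14a2, 0.46 for Aqp4, 0.31 for Aqp3 and -0.88 for Avpr2. The first 3 turned negative without CT28 and CT32, Aqp4 and Aqp3 were also not called without CT0, without CT24, without some replicate numbers and with time-point means, and 55.1% of all tested genes passed the same test.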

How the results depend on the processing

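Of 960 recomputed values 878 kept their direction and their side of the threshold, 49 were no longer called, 19 became called and 14 reversed. In CT24 against CT0 and CT36 against CT32 the counts of members called stayed within 1.5 times under all 21 alternatives. In CT48 against CT28 the count of 6 became 1 with CT36 in place of CT28, where Aqp2 was at -0.29 and Aqp4 at -0.10.

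With time-point means as the unit 0 members were called for the slope of CT0 to CT24 and 0 for the 24 h cycle, and 2 for the difference of slopes. Without CT28 and CT32 the slope of CT28 to CT48 kept 1 call, with Aqp2 at -0.61 and Aqp4 at -0.34, and the difference of slopes had 2, with Aqp1 at -0.36, Aqp3 at -0.35, Aqp4 at -0.43 and Slc14a2 at -0.30. Without CT28 alone the Aqp2 slope was -0.0261 and the difference of slopes -0.14 for Aqp1 and -0.0205 for Aqp3. The difference of slopes was called for 2 genes without CT0 and without CT24, and that of Aqp2 turned to 0.15 without CT48. Leaving out one replicate number gave 2 to 3 calls for the difference of slopes and 1 to 3 for the 24 h cycle. The cycle had 5 calls without CT16 and 5 without the step. The fitted peak moved by over 6 h for Aqp1 without the step (amplitude 0.0848) and for Slc14a2 without CT28 and CT32 (0.18). Apart from the fewer libraries and time points, the cause was not tested.

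Deviations of same-numbered libraries from their group means had a median correlation of 0.03 over 300 pairs (0.05 within a stretch, against -0.02 for other numbers there). Within a stretch 56 of 138 same-numbered pairs were over 0.1, against 97 of 414 pairs of other numbers. Same-numbered libraries were thus somewhat more alike, though many pairs were under 0.1. The main fit did not pair the libraries by number. With the replicate number as a block, the calls of CT36 against CT32 went from 4 to 5, as Aqp2 passed (adjusted p = 0.0404), no other call of a member changed, and all genes called in CT24 against CT0 went from 1443 to 1560.

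Over all genes, calls in CT24 against CT0 (1443) were 3832 with the spread of that stretch alone, 4068 with those 2 groups alone, 3991 with weights, and 489 to 1433 where libraries were left out. Calls for the slope of CT0 to CT24 (736) were 3310 and 3395 with the stretch alone and with weights, 17 with time-point means, and from 118, without CT24, to 872 without a time point or replicate number. Of the 736, 611 were rises, while there were 516 rises and 277 falls with equal totals and 536 and 282 with quantile scaling. Calls for the slope of CT28 to CT48 (9857) were 4031 and for the difference of slopes (7948) were 2909 without CT28 and CT32, and the latter 5142 with time-point means. Calls in CT48 against CT28 (9237) were 4209 with CT36 in place of CT28. Calls for the 24 h cycle (1773) were 6400 without the step, 2921 with weights, 0 with time-point means (533 genes at an unadjusted p under 0.05), 599 without CT0, 933 without CT12, 665 without CT32, 738 without CT44, 3479 without CT48, 3714 without CT8 and 224 to 724 without a replicate number. Depth is unknown, so no counting limit could be given.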
